A study of Triticum turgidum with 12 samples.

Results

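The pale-green durum wheat mutant (M, line MD-597) was compared with its wild-type (WT, the variety Borgia) in the absence of water stress. Members of the comparison were the 6 arrays whose sample titles give genotype M or WT with the control treatment, 3 for each genotype, out of 12 arrays in the series. The other 6 arrays hold the same genotypes under water stress and were used only where the difference between genotypes is set beside that under stress. All 6 control samples were flag leaves taken at anthesis from plants whose soil was kept at full water holding capacity throughout. The mutant is a single line, selected after sodium azide treatment of Borgia seed and backcrossed to Borgia. The mutated gene is not named in the sources used here, so no targeted gene could be read as a check of the labels. Per the study's methods the plants stood in a glasshouse in a split plot design and each replicate pooled flag leaves of several plants, so the p-values below measure the spread between such pools.

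A pale-green leaf holds less chlorophyll per leaf area than a normal one, because pigment synthesis, the light-harvesting proteins or the build-up of chloroplast membranes is limited. Plants answer attack by fungi, and also oxidative stress in the leaf, with pathogenesis-related (PR) proteins, which include secreted chitinases, glucanases, peroxidases and small peptides. Dehydrins and other late embryogenesis abundant (LEA) proteins protect cells that lose water, and many of their genes are switched on by the hormone abscisic acid (ABA). These 3 groups of genes, for pigments and photosynthesis, for defense and for ABA responses, order the account that follows.

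The deposited values are intensities on a linear scale with arbitrary units, 1 for each probe set (a group of short probes that together measure 1 transcript) on each array. Each array carries 61290 probe sets, and all 6 control arrays were scaled by the authors to the same trimmed mean of 500.3. The median intensity of an array was between 52.8 and 58.8 in M and between 52.4 and 56.7 in WT. The filter asked for an intensity over the array's 60th percentile in every replicate of at least 1 genotype, which left 23330 of the 61179 probe sets that are not controls. Log2 intensities of the kept probe sets correlated at 0.982 to 0.985 within a genotype and at 0.976 to 0.983 between genotypes. The median SD of the log2 intensity between replicates was 0.16 in M and 0.15 in WT. The first principal component held 32.1% of the variance and placed the 3 M arrays at 17.2 to 25.6 and the 3 WT arrays at -30.8 to -13.3, so the genotypes were separated on it. Spiked hybridization controls averaged 12.58 (log2) in M and 12.56 in WT (exact two-sided permutation p = 0.80, where 3 against 3 arrays cannot go below 0.10). The ratio of 3' to 5' signal, a sign of RNA integrity, was 107.7 ± 26.5 in M and 45.8 ± 15.5 in WT for sucrose synthase and 1.35 ± 0.36 in M and 0.79 ± 0.12 in WT for EF1a (SD, n = 3 each). Neither of these ratios overlapped between genotypes (exact two-sided permutation p = 0.10 for each), whereas those of actin, GAPDH, G6PDH, ubiquitin and CYP86 gave exact p-values of 0.20 to 0.70. The part of RNA integrity in the differences below was not tested.

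Few probe sets passed the test between the genotypes, and most of those were higher in the mutant. Of the 23330 kept probe sets, 45 were higher in M (0.193%) and 10 were lower in M (0.0429%) with a limma p, adjusted by Benjamini-Hochberg, under 0.05 and a difference of 2-fold or more, and these 55 are the called probe sets below. The smallest adjusted p was 0.0115, and with no fold threshold 77 probe sets were higher (0.33%) and 20 lower (0.0857%). At an unadjusted p under 0.05, 1176 were higher (5.04%) and 1023 lower (4.38%), 9.43% in all, and 151 (0.647%) and 66 (0.283%) of these were also 2-fold. Groups that did not overlap were more frequent: all 3 M arrays were above all 3 WT arrays in 1660 probe sets (7.12%) and below them in 1762 (7.55%). Of the 55 called, 7 were over 4-fold higher, 3 over 4-fold lower, and the median log2 fold change (M over WT) was 1.39 among the 45 and -1.37 among the 10. Some of these could pass the filter only through the genotype in which they were high, namely 8 of the 45 through M and 4 of the 10 through WT.

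The calls leaned on single arrays and on the variance model. Without WT replicate 3 no probe set was called (adjusted p at least 0.055), although 161 were higher and 50 lower at an unadjusted p under 0.05 and 2-fold. Without M replicate 3, 3 higher and 2 lower were called; without WT replicate 1, 17 and 3; without M replicate 1, 41 and 19; without WT replicate 2, 47 and 2. With no intensity trend in the variance prior, with all 12 arrays in the model, or by the methods' t-test after adjustment, no probe set passed both thresholds. Each difference is therefore given with its values on the 6 arrays.

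**Figure D1:**
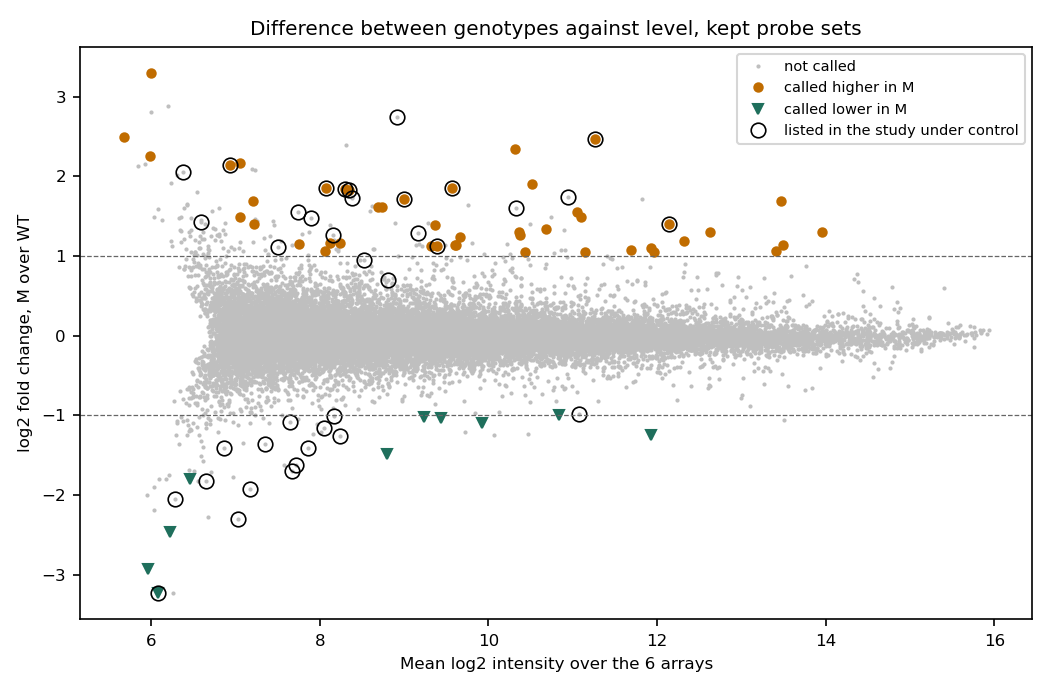
Log2 fold change (M over WT, vertical axis) against the mean log2 intensity over the 6 control arrays (horizontal axis) for the 23330 kept probe sets. Filled circles are the 45 called higher in M, triangles the 10 called lower, open rings the 37 kept probe sets that the study lists under control, and dashed lines mark 2-fold; the largest differences sit at low intensities on both sides.

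Gene names are those that the study's tables give to probe sets. Of the 55 called, 11 had an entry there, 4 a locus number in the array's annotation (some had both), and 42 neither. The 11 include Ta_22572_1_S1_at, whose entry reads unknown. The study listed 38 probe sets as modulated under control on these same arrays, so their direction here is not independent evidence. Of its 23 induced probe sets 22 were kept, all were above 0 in M and 9 were called (beside 0.193% of all kept probe sets called higher). Of its 15 repressed ones all were kept, all were below 0 and 1 was called (beside 0.0429% called lower). Their median log2 fold changes were 1.66 and -1.41, beside -0.01 over all kept probe sets. Of these, 4 of the 22 passed the filter only through M and 10 of the 15 only through WT, the genotype in which each was high. The study designed primers for a second assay of 10 genes, and those of 4 genes described below are shown here. They are written 5′ to 3′, forward then reverse. Chitinase 3 and blufensin 1 were called higher in M, while RAB and WZY1 were lower in M but were not called.
Chitinase 3 forward: gctactgtgacctcctcggtgtca
Chitinase 3 reverse: ggtctatcgccacgccattgttac
Blufensin 1 forward: ccgaggatggcaaagaacaactc
Blufensin 1 reverse: ggaaatggttcatctcgtgcttatg
RAB forward: ggcatcatggacaagatcaagga
RAB reverse: actaggctcacgttgtatggtggaa
WZY1 forward: atggcacctacggacagcagggta
WZY1 reverse: atcggtgacatgcgtcccagtac

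Of the enzymes that digest fungal cell walls, chitinase 3 and a glucanase rose in the mutant. All 6 listed probe sets for chitinases and glucanases were above 0, and 2 of the 6 were called (median log2 fold change 1.96). In each of the 6, M was above WT on every array. Over all kept probe sets, 0.193% were called higher and 7.12% had M above WT on every array. The study had picked the 6 as induced on these same arrays, so these counts are not independent evidence. Chitinase 3, which cleaves chitin, had intensities of 4586, 4483 and 9470 in M, against 899, 1700 and 755 in WT. It rose 5.53-fold (log2 fold change 2.47 ± 0.33, SE of the fit; limma adjusted p = 0.025), and the groups did not overlap. Glucan endo-1,3-beta-glucosidase GII, which cleaves the beta-glucans of cell walls, had 434, 432 and 710 in M, against 116, 231 and 105 in WT, and rose by 1.85 ± 0.31 on the log2 scale (limma adjusted p = 0.045). A second probe set of the same gene had 150, 199 and 165 in M, against 13.5, 119 and 42.3 in WT, and was not called (2.06 ± 0.64, limma adjusted p = 0.30). The WT arrays differed widely among themselves in this second probe set.

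The largest difference of this group missed the threshold. Beta-1,3-glucanase had 1190, 760 and 2145 in M, against 121, 522 and 102 in WT, a log2 fold change of 2.75 ± 0.57 (limma adjusted p = 0.092). WT replicate 2 stood apart from the other WT arrays, at 522, and the SD of the log2 values was 0.75 in M and 1.30 in WT. Chitinase II (CHT2) gave a log2 fold change of 1.74 ± 0.40 (limma adjusted p = 0.13), with 2635, 3716 and 4708 in M, against 2113, 1065 and 551 in WT. A further 4 kept probe sets, named here after their values were seen, carry the same transcript cluster number in their names as CHT2. All 4 were above 0, at 1.15 to 1.49, and 1 of them, Ta_2278_2_S1_at, was called at 1.26 ± 0.17 (limma adjusted p = 0.025), with 1844, 2092 and 2254 in M and 1136, 805 and 692 in WT. A listed beta-glucanase had 263, 440 and 546 in M, against 168, 164 and 107 in WT, and was not called (1.48 ± 0.29, limma adjusted p = 0.075). A probe set whose name differs from it only in the ending, picked after its values were seen, was called at 1.17 ± 0.19 (limma adjusted p = 0.035), with 362, 456 and 560 in M and 198, 213 and 193 in WT. Such companions did not always share a sign: of 51 kept probe sets that carry the same number as a listed induced one, 28 were above 0 and 3 were called (median 0.07), while the 9 among them whose names begin with Ta_ were all above 0 and 2 were called (median 1.12). Of 59 others that share a number with a probe set called higher, 34 were above 0. None of the 59 could be called higher, because every probe set called higher was left out of this count.

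Secreted defense proteins followed the same direction with 1 exception. Of 7 listed probe sets, 6 were above 0 and 5 of them were called, beside 0.193% of all kept probe sets called higher. The seventh, oxalate oxidase, was below 0 (median of the 7, 1.72). The study had picked these 7 on the same arrays. Blufensin1, a small secreted peptide known from barley attacked by powdery mildew, had 558, 440 and 865 in M, against 151, 177 and 174 in WT. It rose 3.57-fold (1.84 ± 0.24, limma adjusted p = 0.024), and the 3 WT arrays lay close together. The germin-like protein GLP2b, of the cell wall, had 1377, 941 and 2294 in M, against 411, 467 and 332 in WT (3.60-fold, 1.85 ± 0.28, limma adjusted p = 0.027). Peroxidase POX10, of the class of secreted peroxidases that cross-link wall polymers, had 476, 500 and 967 in M, against 184, 173 and 159 in WT (1.83 ± 0.26, limma adjusted p = 0.026). A second probe set that the study names POX10 in one table and PER12 in another had 347, 274 and 523 in M, against 135, 185 and 78.9 in WT, and was not called (1.55 ± 0.33, limma adjusted p = 0.099). In each of these 4 probe sets M replicate 3 was the highest of the 3 M arrays.

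The other members of this group were a PR protein precursor and an adhesive/proline-rich protein. The precursor had 728, 821 and 1321 in M, against 285, 344 and 227 in WT (1.72 ± 0.23, limma adjusted p = 0.025). The proline-rich protein, a type of wall structural protein, had 985, 848 and 1154 in M, against 537, 459 and 378 in WT (1.12 ± 0.16, limma adjusted p = 0.027), and the companion probe set with the same number in its name, also called, gave 1.12 ± 0.16. Oxalate oxidase, a germin that releases hydrogen peroxide from oxalate, had 67.4, 32.5 and 69.7 in M, against 129, 145 and 358 in WT (-1.82 ± 0.44, limma adjusted p = 0.16, not called). Its companion probe set, outside the study's list and picked after its values were seen, gave -3.23 ± 0.66 (limma adjusted p = 0.089, not called), at 46.7, 8.17 and 41.1 in M, against 143, 200 and 451 in WT. The 2 listed germin-family genes, GLP2b and oxalate oxidase, thus had opposite signs.

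Enzymes of phenolic defense compounds gave 1 call in 2 listed probe sets (beside 0.193% of all kept probe sets called higher). Naringenin,2-oxoglutarate 3-dioxygenase, which acts in the synthesis of flavonoids, had 234, 220 and 331 in M, against 56.7, 50.5 and 69.0 in WT, and rose 4.42-fold (2.14 ± 0.26, limma adjusted p = 0.017). Its M arrays were all well above its WT arrays, which lay near the median of the array, and it passed the filter only through M. Agmatine coumaroyl transferase-1 (ACT-1), which makes precursors of antifungal hordatines in barley, had 491, 402 and 445 in M, against 222, 244 and 116 in WT (1.27 ± 0.27, limma adjusted p = 0.095). Among regulators, a WRKY45-like transcription factor of the WRKY family, many of which act in defense, had 534, 531 and 654 in M, against 334, 377 and 343 in WT (0.70 ± 0.14, limma adjusted p = 0.085). WRKY70, which shares its transcript cluster number with that factor, had 3739, 3438 and 5580 in M, against 2215, 2260 and 2382 in WT (0.86 ± 0.16, limma adjusted p = 0.059). Neither was called, and in both every M array was above every WT array, as in 7.12% of all kept probe sets.

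**Figure D2:**
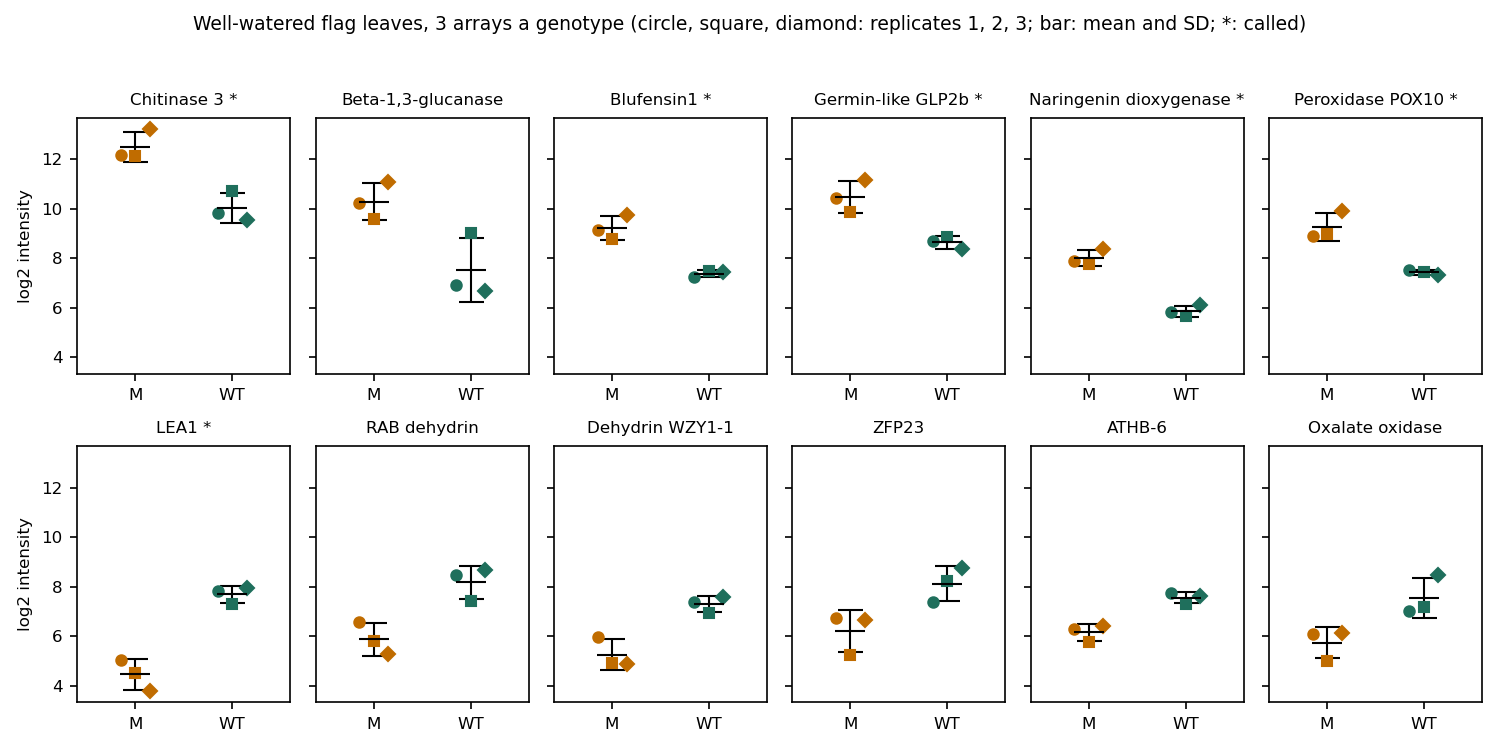
Log2 intensity (vertical axis) on each of the 6 control arrays for 6 listed genes that were higher in M (top row) and 6 that were lower (bottom row), with M left of WT. Points are single arrays (circle, square and diamond for replicates 1, 2 and 3), horizontal bars the mean and SD (n = 3), and a star marks a called gene; chitinase 3 and LEA1 show M and WT arrays far apart, while WT replicate 2 stands high in beta-1,3-glucanase.

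Among dehydration-related genes, LEA1 fell in the mutant, and the other listed ones did not pass the test. The late embryogenesis abundant protein LEA1 had intensities of 33.4, 23.2 and 14 in M, against 227, 158 and 248 in WT. It fell to 0.107 of the WT level in M (-3.23 ± 0.38, limma adjusted p = 0.017), the second largest decrease of the 23330 kept probe sets. The M values lay under the median intensity of their arrays, and the table holds no detection calls, so whether the transcript was above background in M is unknown. With 32 added to each intensity before taking logs the difference was -2.12 and was still called. The RAB protein, an ABA-responsive dehydrin, had 95, 55.7 and 38.6 in M, against 352, 172 and 407 in WT (-2.31 ± 0.40, limma adjusted p = 0.052). Dehydrin WZY1-1 had 63, 30.6 and 29.1 in M, against 169, 123 and 190 in WT (-2.04 ± 0.37, limma adjusted p = 0.057). Both sat just outside the threshold, with M below WT on every array, and both were called once 32 was added (limma adjusted p = 0.046 for RAB and 0.045 for WZY1-1). All 3 genes passed the filter only through WT.

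The remaining dehydration-related probe sets showed smaller differences. Grouped here as dehydrins and LEA proteins were 7 distinct probe sets of the study's tables, with RD22 placed among them. Of these 6 were below 0 and 1 above (median -0.75, which is the value of RD22). RD22, a gene of the response to drying known from Arabidopsis, had 6640, 7901 and 4863 in M, against 14593, 9776 and 8453 in WT (-0.75 ± 0.21, limma adjusted p = 0.24). The other 3 probe sets, named RAB18 after the Arabidopsis gene, ranged over -0.63 to 0.34 and none was called. Probe sets with a dehydrin name thus had both signs.

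The rest of the lower list held regulators, genes of protein and nucleic acid breakdown, some other genes and probe sets of unknown function. None of them was called. ZFP23, a zinc finger protein of the Q-type, had 106, 37.7 and 101 in M, against 167, 303 and 433 in WT (-1.92 ± 0.45, limma adjusted p = 0.14). ATHB-6, a homeobox-leucine zipper protein that acts in ABA responses of Arabidopsis, had 78.3, 54.3 and 85.9 in M, against 217, 159 and 197 in WT (-1.40 ± 0.27, limma adjusted p = 0.069). GH3.2, which joins auxin to amino acids, gave -1.08 ± 0.33 (limma adjusted p = 0.29), and the release factor ERF1, which ends translation, gave -1.26 ± 0.27 (limma adjusted p = 0.096). The papain-like cysteine proteinase PAP-14, a protein-degrading enzyme, had 222, 72.0 and 91.4 in M, against 341, 254 and 569 in WT (-1.69 ± 0.42, limma adjusted p = 0.17). Progesterone 5-beta-reductase gave a log2 fold change of -1.63 ± 0.32, and the S40 protein, which is senescence-related in barley, -1.15 ± 0.33. One endonuclease probe set (-1.41 ± 0.44, limma adjusted p = 0.30) was the only one of the 15 repressed probe sets whose groups overlapped. Its M replicate 1, at 293, reached the lowest WT arrays, at 297 and 292. The study had picked the 15 as repressed on these arrays. Over all kept probe sets, 7.55% had M below WT on every array.

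Several of the largest differences belonged to probe sets without a gene name. Ta_12792_1_S1_x_at had 287, 114 and 246 in M, against 25.2, 19.5 and 17.2 in WT, a 9.82-fold increase (3.30 ± 0.40, limma adjusted p = 0.018) and the largest of the 23330. Ta_28692_2_S1_s_at had 130, 119 and 115 in M, against 34.6, 20.4 and 14.2 in WT (5.64-fold, limma adjusted p = 0.034). Both passed the filter only through M, and their WT values lay below the median of the arrays. The other 4 kept probe sets numbered Ta_28692 lay between -0.32 and 0.31, overlapped and were not called. In the other direction, Ta_11025_1_A1_at had 34.1, 16.9 and 19.9 in M, against 112, 196 and 231 in WT (-2.93 ± 0.40, limma adjusted p = 0.025). TaAffx_143995_10_S1_at had 17.1, 58.4 and 32.2 in M, against 171, 155 and 204 in WT (-2.46 ± 0.43, limma adjusted p = 0.050, just inside the threshold). Both passed only through WT, with M values mostly below the median of the arrays. Whether the low genotype was above background is unknown for all 4, so these folds depend on the scale: with 32 added the log2 fold change of Ta_12792_1_S1_x_at was 2.16, those of the lower ones were -1.89 and -1.66, and all 4 were still called.

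Among called probe sets with only a locus number, LOC542887 had 2470, 1880 and 5106 in M, against 456, 835 and 478 in WT, a 5.07-fold increase (2.34 ± 0.34, limma adjusted p = 0.027). LOC543342 had 13243, 15197 and 19493 in M, against 6922, 9792 and 6399 in WT (1.06 ± 0.17, limma adjusted p = 0.036), and a second probe set with the same cluster number was not called, at 0.21. A listed transcript of unknown function, Ta_22572_1_S1_at, had 6060, 7090 and 9344 in M, against 2835, 3295 and 2310 in WT (1.41 ± 0.17, limma adjusted p = 0.017). It was the only call among the 9 kept listed probe sets with no function named, of which 7 were above 0 and 2 below. The called increases included strong signals: 20 of the 45 ranked among the top 10% of probe sets of the array in M and 10 of the 45 in WT. The filter favors strong signals, and the same share over all kept probe sets was not counted. These counts therefore do not set the called probe sets apart from the others.

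Transcripts for photosynthesis and pigments showed small differences between the genotypes, with 1 call. Of the 16 listed probe sets, all kept, 10 were above 0 and 6 below, and the median log2 fold change was 0.04. HEMA1, the enzyme at the entry to chlorophyll synthesis, had 5722, 6950 and 5958 in M, against 6521, 6000 and 6093 in WT, with a log2 fold change of 0.00 and a 95% interval of -0.20 to 0.19. Its second probe set gave 0.02 (-0.19 to 0.23). Phytoene synthase (PSY), at the entry to carotenoid synthesis, had 3350, 4322 and 3846 in M, against 4719, 4236 and 4218 in WT (-0.20, interval -0.43 to 0.03). DXS, which starts the plastid isoprenoid pathway, gave -0.21 (-0.51 to 0.09). None of these intervals reached 2-fold in either direction.

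The light-harvesting protein LHB1B2, which binds chlorophyll in photosystem II antennae, was read by 5 probe sets that did not behave alike. The called one had 240, 233 and 196 in M, against 88.7, 83.9 and 66.1 in WT (1.49 ± 0.23, limma adjusted p = 0.028), and it passed the filter only through M. This call was lost whichever of the 6 arrays was left out (limma adjusted p = 0.060 to 0.11). The other 4, with intensities between 1256 and 7330, gave -0.20 to 0.19, and their groups overlapped. The small subunit of RUBISCO, the enzyme that fixes carbon dioxide, had 1284, 1600 and 1087 in M, against 1399, 1204 and 1059 in WT (0.11, interval -0.24 to 0.45). The large subunit, encoded in the chloroplast, scattered from 116 to 457 in M and from 154 to 311 in WT. These 7 probe sets served as the leaf markers, all were kept in these samples, and no grain or spike marker could be read because no probe set of the annotation names one. The early light-inducible protein ELIP1 gave 0.16 and 0.55 in its 2 probe sets, and the 5 probe sets for chloroplast transcription and translation had a median of -0.21, none called.

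Actin, the study's reference gene for its second assay, had 28108, 29868 and 26809 in M, against 30610, 29593 and 30850 in WT (-0.10, interval -0.25 to 0.04), and its groups overlapped.

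The lists that the study drew up for the response to water stress held 1 call between well-watered genotypes. The study chose them mostly by comparing stress with control within each genotype, so these same control arrays had a part in the choice. Their shares, here and in the hormone and signaling lists below, are therefore not independent evidence. Leaving out those also listed under control, 154 of their 169 probe sets were kept, 78 were above 0 and 76 below, the median was 0.02 and the call was the LHB1B2 probe set above. At an unadjusted p under 0.05, 19 of the 154 were higher (12.3%, beside 5.04% of all kept probe sets) and 11 lower (7.14%, beside 4.38%). In detoxification, 10 of the 15 kept were above 0 and 5 below (median 0.18), and 5 were higher at an unadjusted p under 0.05 (33.3%, beside 5.04%), but limma called none after adjustment. With the peroxidase probe set that is also listed under control, 6 of 16 were higher at that p and the median was 0.25. Ascorbate peroxidase APX1, which removes hydrogen peroxide, had 12648, 15574 and 14377 in M, against 10257, 10750 and 10181 in WT (0.45 ± 0.08, limma adjusted p = 0.068). It is a small difference seen on every array. In carbohydrate metabolism 9 of 24 were above 0 and 15 below (median -0.13). Fructan 6-exohydrolase, which breaks down fructan reserves, had 247, 187 and 108 in M, against 365, 355 and 473 in WT (-1.21 ± 0.29, limma adjusted p = 0.14), and sucrose:sucrose 1-fructosyltransferase, which begins fructan synthesis, gave -0.53 ± 0.14 (limma adjusted p = 0.23).

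Hormone and signaling lists gave no call in limma, and at an unadjusted p under 0.05 the jasmonic acid list held 2 higher and 1 lower of 9 (33.3%), the ABA list 1 lower of 5 (20%) and the ethylene list 0 of 6, beside 9.43% of all kept probe sets. In amino acid metabolism, where 9 of 18 were above 0, threonine aldolase THA2 gave 0.95 ± 0.19 (limma adjusted p = 0.083) and the lysine-degrading enzyme LKR/SDH -0.60 ± 0.14 (limma adjusted p = 0.13). SMO1-2, a sterol C4-methyl oxidase, had 483, 1028 and 589 in M, against 209, 295 and 185 in WT (1.56 ± 0.28, limma adjusted p = 0.056). ABA receptors and phosphatases had a median of -0.09 over 5 probe sets, with the smallest p for the receptor RCAR10 at -0.29 ± 0.09 (limma adjusted p = 0.31). Jasmonic acid genes had a median of -0.19 over 9, with the smallest p for the oxophytodienoate reductases OPR2 at 0.34 ± 0.11 and OPR1 at -0.39 ± 0.16. Ethylene genes lay between -0.12 and 0.08, and the water channels between 0.11 and 0.27. MAPK3, a kinase of stress signaling, gave 0.39 ± 0.13, and CIPK3, a calcium-dependent kinase, -0.63 ± 0.20 (limma adjusted p = 0.34 and 0.29). Probe sets of cell wall synthesis, pyruvate metabolism and the regulators of carbon metabolism lay within -0.55 to 0.47, and 0 of them was called, though PDC2, SAL1 and RAP2.12 had an unadjusted p under 0.05.

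**Figure D3:**
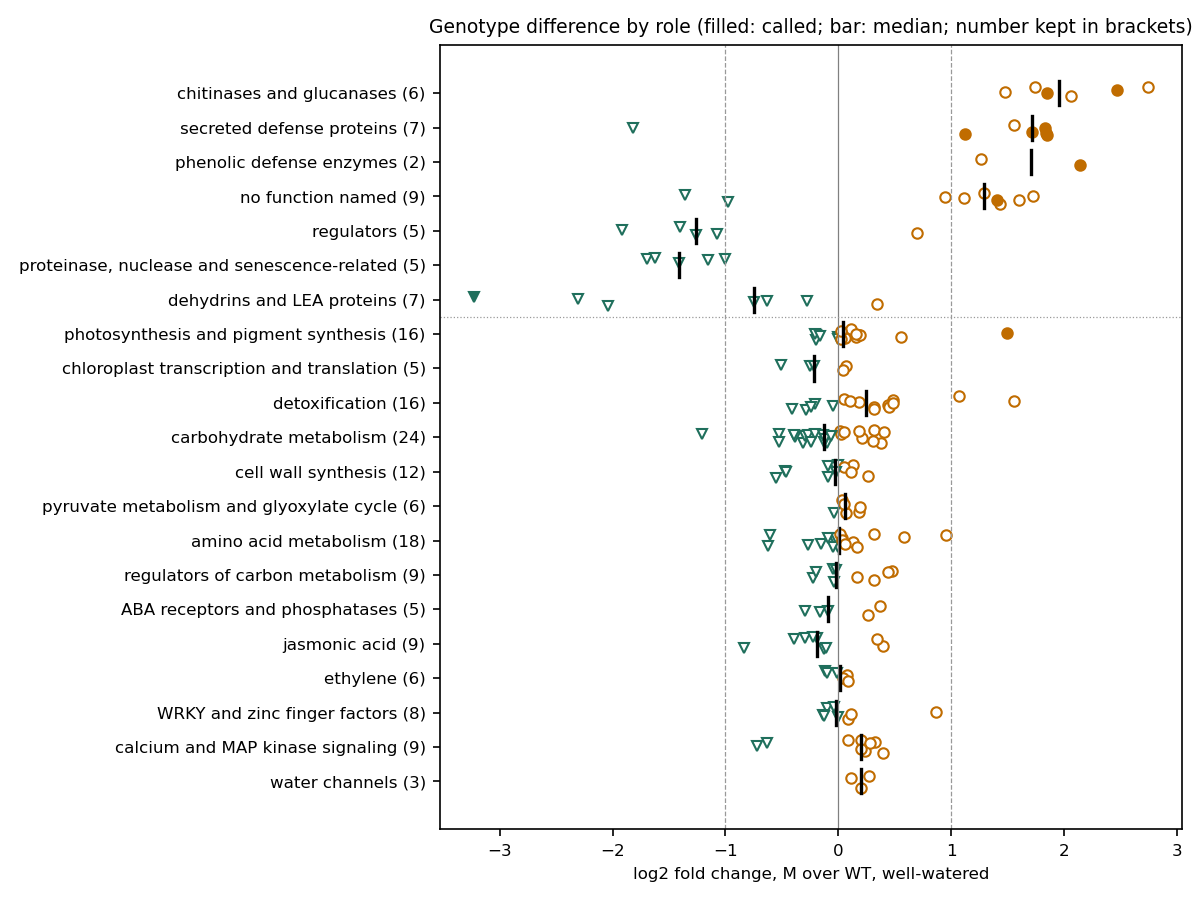
Log2 fold change (M over WT, horizontal axis) of each kept probe set in the study's lists, by role (rows, with the number kept in brackets); filled symbols were called, vertical bars are medians and dashed lines mark 2-fold. The roles above the dotted line are those of the list under control (dehydrins with RD22 and other members of the stress lists added). Their medians include 1.96 for chitinases and glucanases and -1.41 for proteinases, nuclease and senescence. Those below the line lie near 0.

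Within a genotype the arrays were not alike for these genes. Among the 45 probe sets called higher, M replicate 3 was the highest M array in 37 (82.2%), beside 30.6% of all kept probe sets, and WT replicate 2 the highest WT array in 29 (64.4%), beside 33.4%. The mean log2 intensity of the 23 listed induced probe sets was 9.36, 9.21 and 9.88 in M replicates 1, 2 and 3, against 7.83, 8.07 and 7.68 in WT replicates 1, 2 and 3. For the 15 listed repressed probe sets it was 7.21, 6.42 and 6.71 in M, against 8.11, 8.23 and 8.87 in WT. No M array reached a WT array on either list. The study had picked both lists by that difference on these same arrays, so this separation is not independent evidence. M replicate 3 stood apart from the other M arrays on the induced list. WT replicate 3 stood apart from the other WT arrays on the repressed list. The leaf markers averaged 10.26, 10.22 and 9.93 in M, against 9.88, 9.96 and 9.74 in WT, and overlapped.

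**Figure D4:**
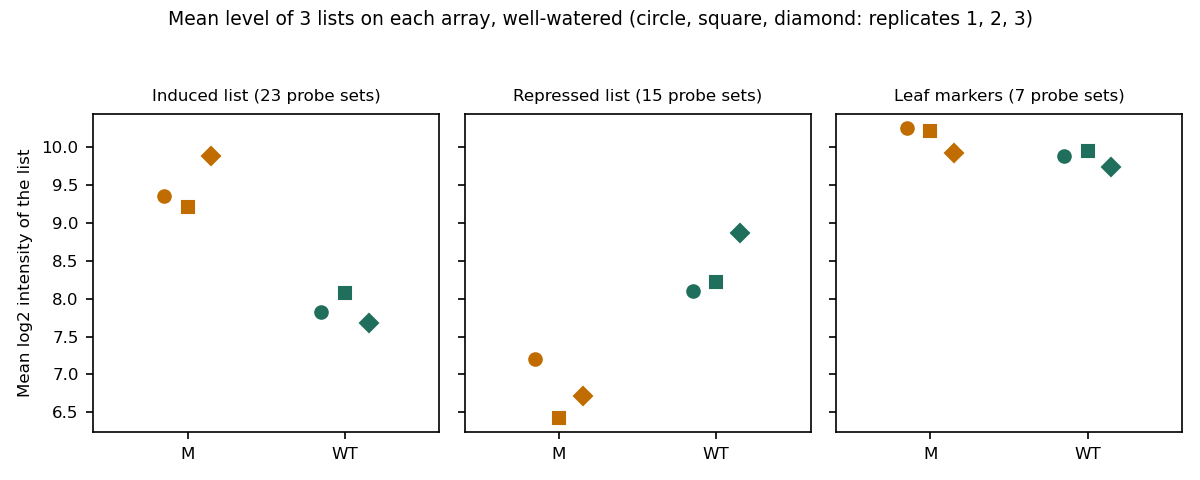
Mean log2 intensity (vertical axis) of the listed induced, the listed repressed and the leaf marker probe sets on each control array, M left of WT; points are single arrays (circle, square and diamond for replicates 1, 2 and 3). M replicate 3 is the highest point of the induced list and WT replicate 3 the highest of the repressed list. The study picked both lists by the difference between M and WT on these same arrays.

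Under water stress, on the other 6 arrays, none of the differences called under control passed the test. Of the 45 probe sets called higher under control, 26 (57.8%) were above 0 under stress, beside 52% of all kept probe sets, with a median of 0.22. Of the 10 called lower, 5 were below 0 under stress (50%, beside 48% of all kept), with a median of -0.05. A fit of the stress arrays alone called 7 of 23330 (0.03%) and none of the 55. Chitinase 3 had 350, 481 and 561 in M under stress, against 470, 386 and 330 in WT under stress (0.22 ± 0.23), so M and WT overlapped. All 6 of these values lay below the lowest control value, 755. The RAB protein had 591, 626 and 244 in M under stress, against 401, 893 and 1140 in WT under stress (-0.72 ± 0.45), and WZY1-1 had 673, 744 and 94.0, against 441, 331 and 936 (-0.51 ± 0.75).

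GLP2b and the proline-rich protein were among the called probe sets with estimates of similar size in both water regimes, without being called under stress. GLP2b gave 1.56 ± 0.49 under stress (limma adjusted p = 0.26) beside 1.85 ± 0.28 under control, and the proline-rich protein 1.37 ± 0.52 (limma adjusted p = 0.34) beside 1.12 ± 0.16. The called LHB1B2 probe set gave 1.04 ± 0.58 under stress (limma adjusted p = 0.53) beside 1.49 ± 0.23 under control. Ta_13965_1_S1_at, unnamed and picked after its values were seen, gave -1.84 ± 0.59 under stress (limma adjusted p = 0.27) beside -1.80 ± 0.26 under control. LEA1 gave -1.84 ± 0.74 under stress (limma adjusted p = 0.37) beside -3.23 ± 0.38 under control, with 63.9, 104 and 11.6 in M under stress, against 155, 136 and 167 in WT under stress. A listed transcript of unknown function, Ta_7543_1_S1_at, was lower in M by 1.63 on the log2 scale under stress (-1.63 ± 0.18, limma adjusted p = 0.035, called on those arrays) and gave -0.98 ± 0.25 under control (limma adjusted p = 0.19). The difference of the differences was taken as an interaction term in a model of all 12 arrays, in which 90 of 23330 probe sets had an adjusted p under 0.05 (0.386%). Of the 55 called under control 6 were among them, but since these were picked for a large control difference, the interaction is not an independent test of them. For chitinase 3 it was -2.25 ± 0.46 (limma adjusted p = 0.059), for GLP2b -0.29 ± 0.54 (0.89) and for LEA1 1.38 ± 0.92 (0.60).

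**Figure D5:**
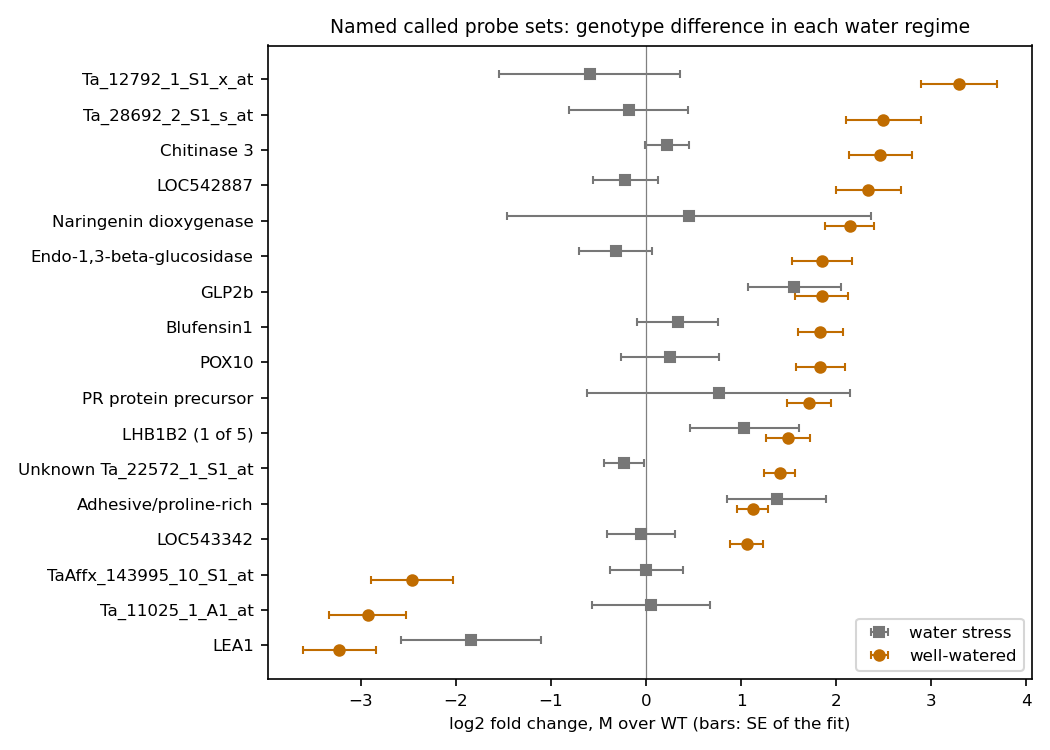
Log2 fold change (M over WT, horizontal axis) of the 17 named called probe sets on the water stress arrays (squares) and on the control arrays (circles), with the SE of each fit as bars (n = 3 arrays per genotype and regime). Chitinase 3, LOC542887 and blufensin1 lie near 0 under stress, while GLP2b, the proline-rich protein, LEA1 and LHB1B2 keep their side.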

How the data were processed

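The authors' deposited table holds MAS5 signals from the Affymetrix Wheat Genome Array, linear intensities for every probe set on each array, scaled by the authors to a common trimmed mean. The version of MAS5 is not given in the sources used here. The table has no detection calls and is not the RMA data of the study's own analysis. How many arrays there are limits the precision.

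Left out were 111 control probe sets. The 64 reporter probe sets stayed in, and 2 passed the filter. Intensities were log2 transformed with no offset and no further normalization. The test was limma 3.58.1 (R 4.3.3) on the group means of the 6 control arrays, with moderated variances that follow an intensity trend. Adjustment of p-values (Benjamini-Hochberg) ran over all 23330 probe sets that passed the filter. A call needed an adjusted p under 0.05 and 2-fold. The stress arrays were fitted in the same way, and the interaction in a model of all 12 arrays. Plots used matplotlib 3.10.9 (Python 3.11.15).

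Members, lists and the rule for named probe sets were chosen with earlier results of these data known. Named were every probe set that the study lists under control, called probe sets with a name or locus number (up to 15 in each direction), the 2 largest unnamed ones in each direction, and from each other list the called members or the 2 with the smallest p. Others are marked where they appear. The array's annotation, dated and made for bread wheat, names 1273 probe sets, 1254 by locus number, and 728 were kept. In probe set names the sign _ stands for each dot. Names ending in _x_at or _s_at can pick up related transcripts, and durum wheat has near-identical copies of each gene on its A and B genomes, which 1 probe set cannot tell apart. Primer sequences are those designed by the study.

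Alternatives were quantile normalization, other filters or none, 32 added before the logarithm, no intensity trend, all 12 arrays, the methods' t-test (Welch), unadjusted p, no fold threshold, a replicate block, array weights, no _x_at or _s_at probe sets, and each array left out, the last with the same probe sets kept.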

Additional observations from a re-analysis of the deposited data

Results flagged for a closer look

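In 8 of the probe sets named or called here, the difference between genotypes under water stress departed from that under control by the interaction test of limma over all 12 arrays (adjusted p under 0.05). The listed transcript of unknown function Ta_22572_1_S1_at had 2284, 2537 and 2264 in M under stress, against 3961, 2228 and 2396 in WT under stress, so its called increase under control was not seen there (interaction -1.64 ± 0.30, limma adjusted p = 0.044). The other 5 that were called have no gene name and were picked out after their values were seen. Ta_28917_1_S1_at was higher in M under control (1.61 ± 0.22) and had 252, 288 and 485 in M under stress, against 566, 804 and 1331 in WT under stress (interaction -2.98 ± 0.45), and its companion Ta_28917_1_S1_x_at gave -3.08 ± 0.52. Ta_27816_1_A1_at gave -2.18 ± 0.31, Ta_28659_1_S1_x_at -1.67 ± 0.29 and Ta_28659_3_S1_x_at -1.54 ± 0.28. All 6 were chosen by a large control difference, so their interaction is not an independent test.

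The last 2 differed little under control and more under stress. The study listed both for their response to water stress and reported a genotype difference under stress, from these same arrays. Their interaction is therefore not an independent test either. RAP2.12, a transcription factor of the AP2 family, had 4324, 3681 and 3699 in M, against 4583, 4584 and 4476 in WT under control, and 3621, 3983 and 3266 in M, against 9376, 8714 and 10342 in WT under stress (interaction -1.16 ± 0.14, limma adjusted p = 0.032). The water channel PIP2;2 had 21786, 27796 and 23980 in M, against 24477, 21947 and 21431 in WT under control, and 7371, 7703 and 7559 in M, against 2228, 4056 and 2877 in WT under stress (interaction 1.24 ± 0.24, limma adjusted p = 0.049).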

How the results depend on the processing

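With the settings of the report, 45 probe sets were called higher in M and 10 lower, 17 of the called ones were named and 11 were on the study's lists. Every called probe set that could be tested kept its sign under all alternatives. In none of the 45 or the 10 did the M and WT arrays overlap. Leaving out an array, or changing the variance model, filter or p rule, therefore could not turn a sign. The medians of the control lists and of detoxification also kept their signs, but the study picked these lists with the same arrays. The median of photosynthesis and pigments moved between -0.05 and 0.10.

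Nothing was called, whether higher, lower, named or listed (0 each), in limma with no intensity trend (smallest adjusted p 0.079), with all 12 arrays (0.0488, under 2-fold) or by the methods' t-test after adjustment (0.641), and at an unadjusted p under 0.05 and 2-fold these gave 143, 120 and 86 higher and 63, 58 and 26 lower. With the replicate number as a block the count was also 0 in each (smallest limma adjusted p 0.0645, and 159 higher and 70 lower unadjusted). Deviations of arrays with the same number correlated at -0.141, -0.008 and 0.018. The sources used here do not say whether the same number marks a shared plot. These correlations cannot decide it, because they do not record where the plants stood.

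The methods' t-test unadjusted gave 86 higher and 26 lower, with 25 listed. Limma unadjusted gave 151 and 66, and with no fold threshold 77 and 20. Array weights gave 66 and 17, with 18 listed. Without probe sets ending in _x_at or _s_at there were 28 higher and 9 lower, 10 of them named. No filter, or the 40% with the highest mean, gave 6 lower. With each array left out in turn the count was 0 to 47 higher, 0 to 19 lower, 0 to 12 named and 0 to 13 listed, lowest without WT replicate 3, and the percentage of calls that were higher was 81.8 in the report, 60 without M replicate 3, 68.3 without M replicate 1 and 95.9 without WT replicate 2. The cause was not tested. Each genotype had only 3 arrays, and the part of their spread or of weak signals in these changes was not tested. In 3 of the 45 called higher the WT mean lay below the array median, as did the M mean in 4 of the 10 called lower.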
